A study of Mus musculus with 15 samples.

Results

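Stomachs of the last days before birth were compared with stomachs of the first days after it. The comparison used 6 of the 15 libraries of a developmental series of the mouse stomach, grouped by their age labels. The comparison and the 31 gene lists used below were chosen with earlier results of these data known. The 3 libraries before birth came from embryonic days E16.5, E17.5 and E18.5, and the 3 after birth from postnatal days D1, D3 and D5. All 6 were whole stomachs of C57BL/6 mice with no label of any genotype change or treatment, so forestomach, glandular stomach and muscle wall lay in 1 sample. According to the study's methods, stomachs were pooled in pairs at E16.5 and E17.5, single stomachs were used after E18.5, the number for E18.5 itself is not given in the sources used here, and the sexes of pups were not separated. Each age was represented by 1 library. The 3 ages on each side of birth therefore stood in for replicates, and the spread within a group held change with age as well as differences between animals and libraries. At birth the umbilical supply of glucose ends, milk rich in fat becomes the food, and the pup begins to breathe air. Fat is then burned through mitochondrial and peroxisomal β-oxidation, and the liver and some other epithelia turn part of it into ketone bodies. In the mouse stomach the same days bring the glands toward acid and protease secretion, while the forestomach is covered by a stratified squamous epithelium that keratinises.

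Expression was read from the deposited FPKM values (fragments per kilobase of transcript, scaled to the mapped fragments), with the entries of a gene symbol added up. The 6 libraries summed to between 822593 and 908155 FPKM and held 14390 to 14686 genes at 1 FPKM or more. If the deposited confidence bounds followed Poisson counting, they stood for 10600000 to 15600000 fragments a library. Chymosin (Cym), the milk-clotting protease of the young stomach, was at 9621 FPKM or more in each library, and the gastric identity of the tissue was thus measured in all 6. The 10 most abundant genes took 15.6% to 20.3% of all FPKM before birth and 20.03% to 28.4% after it. Some libraries stood apart in single tissues. D1 held 460.5 FPKM of albumin (Alb), against 3.08 to 25.8 FPKM in the other 5 libraries. D3 held 84.5 FPKM of the pancreatic protease Ctrb1, against 0.219 to 12.6 FPKM in the others. E18.5 was the only one of the 6 libraries with more than 0.155 FPKM of Xist, at 16.52 FPKM, and it held 6.75 FPKM of the Y-linked Ddx3y against 10.3 to 14.04 FPKM elsewhere. Both transcripts together go against a single animal as the source of that library. In bulk tissue, fewer cells of a type and less RNA per cell cannot be told apart.

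Of 15969 genes with at least 1 FPKM in 1 of the 6 libraries, 356 differed between the sides of birth at an adjusted p under 0.05 in limma, fitted to log2(FPKM + 1). This was 2.23% of the genes tested. After birth 167 genes were higher, 1.05% of those tested, and 189 were lower, 1.18%. Genes that rose did so by a median of 1.21 on the log2 scale, and 113 of them changed by a factor of 2 or more. Genes that fell did so by a median of -0.87, and 56 of them changed by that factor. An unadjusted p under 0.05 was reached by 5155 genes. The median gene was 0.127 lower after birth on the log2 scale, and all fold changes below are read against that shift. Median-ratio scaling of the libraries brought the median of all genes to -0.0043 and left 104 genes higher (0.651%) and 20 lower (0.125%), so that genes that rose made up 83.9% of the calls in place of 46.9%. Of these, 100 of the higher genes and all 20 lower ones were also called from the deposited values. The groups did not overlap in 11% of genes tested with the higher values after birth and in 27.6% with the lower values after birth; with scaling these shares were 17.2% and 17.7%, or 34.9% in either direction.

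The counts of calls rested on single libraries. Without E16.5, E17.5, D3 or D5, between 4 and 12 genes were called higher and between 1 and 4 lower. Without E18.5 the counts were 667 higher and 1238 lower, and without D1 they were 235 and 125. The genes called in each of these 6 fits and with all libraries were Angptl4, Scd2 and 2310050C09Rik, the last named after its values were seen. The other 353 calls were each lost in at least 1 of the fits, and an adjusted p printed below for any of them holds for the full set of 6 libraries. Permuting the 6 libraries exactly cannot give a two-sided p below 0.1 for any single gene.

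The change of called genes lay mostly between E18.5 and D1, the interval that holds birth. The ages are not evenly spaced, so the steps between neighbours cover unequal spans of time. For 153 of the 167 genes that rose, or 91.6%, the largest step in their direction between neighbouring ages was that from E18.5 to D1. The same held for 184 of the 189 genes that fell, or 97.4%, and for 36.5% of all genes tested. A small spread within each side of birth is part of what lets a gene pass the test, so these shares describe the called genes and were not tested. Among the 121 genes with a log2 fold change of 2 or more, of which 29 were called, 35.5% had their largest step there. Between whole libraries a Euclidean distance was taken on the log2 scale over genes of at least 1 FPKM in any of the 15 libraries. It was 64.7 from E18.5 to D1, against 49.6 to 61.1 for the other 4 neighbouring pairs. Between neighbouring ages outside these pairs it ran from 39.3 (E13.5 to E14.5) to 69.2 (W6 to W8). It was also above the value at birth from W2 to W3 (67.1) and from W3 to W6 (65.8). When the order of the 6 ages was added to the model as a linear term, no gene passed an adjusted p of 0.05. With that term 569 genes had an unadjusted p under 0.05 for the step at birth, which was 3.56% of those tested, and all 356 called genes kept their sign.

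**Figure D1:**
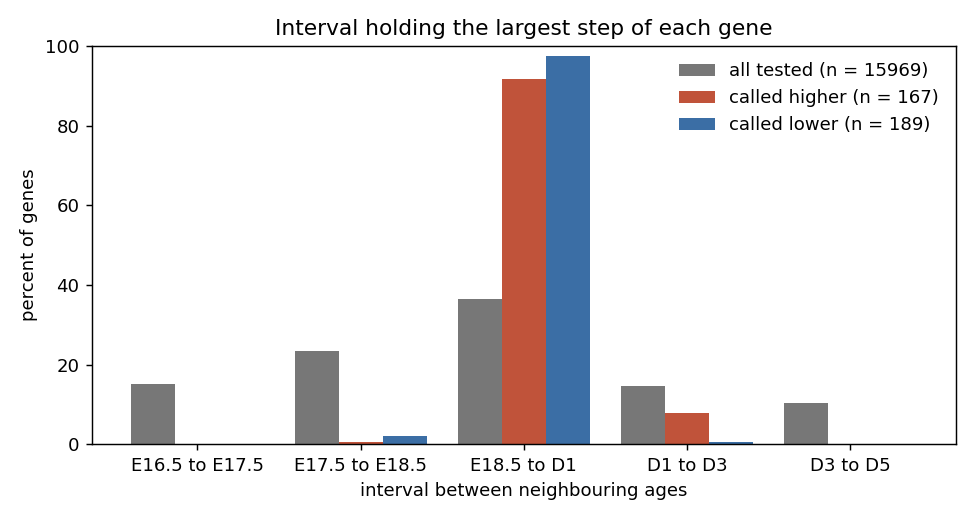
The share of genes, in percent, whose largest step in their direction of change fell into each of the 5 intervals between neighbouring ages, for all 15969 genes tested (grey), the 167 called higher (red) and the 189 called lower (blue) after birth. The interval from E18.5 to D1 held 91.6% of the genes called higher and 97.4% of those called lower, against 36.5% of all genes.

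Several genes that burn fat rose after birth. Of 37 tested genes of fatty acid oxidation and ketone formation, 8 rose and 1 fell, and 21 had all values after birth above those before it, against 11% of all genes. The median log2 fold change of the list was 0.45, and 0.59 with median-ratio scaling, against -0.127 and -0.0043 for all genes. Cpt1a loads long-chain fatty acids onto carnitine at the outer mitochondrial membrane and sets the pace of their oxidation. It was at 16.4, 14.2 and 23.4 FPKM before birth and at 50.5, 60.6 and 55.1 FPKM after it, a rise of the mean by 3.08-fold (log2 fold change 1.60, SE 0.19, adjusted p = 0.0304). Slc25a20, which carries the resulting acylcarnitines across the inner membrane, rose from 15.8, 18.4 and 17.6 FPKM to 30.5, 35.9 and 32.02 FPKM (adjusted p = 0.0415). The carnitine steps of loading and transport were thus each represented by a gene that rose.

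Among the 8 genes that rose were Ehhadh and Acaa1b, which act in peroxisomes. Ehhadh, the bifunctional enzyme of peroxisomal β-oxidation, was at 3.19, 2.82 and 6.48 FPKM before birth and at 23.99, 63.3 and 38.2 FPKM after it, and its mean rose 10.1-fold (log2 fold change 3.01, SE 0.39, adjusted p = 0.0359). The peroxisomal thiolase Acaa1b rose from 3.72, 4.75 and 3.40 FPKM to 11.5, 19.2 and 23.1 FPKM (adjusted p = 0.040). In both genes D1 was the lowest library after birth and still above each fetal library. Acadm, the medium-chain acyl-CoA dehydrogenase of the mitochondrial cycle, was not called and was at 40.7, 40.3 and 49.4 FPKM and then at 47.8, 49.05 and 47.8 FPKM (adjusted p = 0.415). Ppara, the nuclear receptor that many genes of this list answer to, was at 1.29, 2.18 and 2.63 FPKM before birth and at 3.22, 1.195 and 2.31 FPKM after it, with overlapping groups.

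Regulators of fuel use rose as well. Angptl4, a secreted inhibitor of lipoprotein lipase (chromosome 17, 33774900 to 33781575 in the GRCm38 coordinates of the files), was at 4.44, 4.15 and 3.87 FPKM before birth and at 24.97, 23.6 and 27.3 FPKM after it. The spread within each side was small, the mean rose 6.09-fold (log2 fold change 2.35, SE 0.12), and its adjusted p of 0.00221 was kept under the threshold with each library left out. Pdk4, a kinase that shuts the pyruvate dehydrogenase complex and so spares glucose, rose from 2.59, 2.55 and 3.61 FPKM to 9.17, 13.4 and 10.1 FPKM (log2 fold change 1.60, adjusted p = 0.0274). Oxct1, the enzyme that lets a tissue consume ketone bodies, was the member that fell. It was at 72.9, 75.5 and 71.5 FPKM before birth and at 42.99, 45.6 and 48.4 FPKM after it (log2 fold change -0.67, adjusted p = 0.0477, and 0.0575 with median-ratio scaling). When D1 was left out, 8 genes of the list rose and none fell. Without E16.5, E17.5, D3 or D5 1 rose each time, and without E18.5 12 rose and 1 fell. D1 also held liver transcripts, but without it all 16 liver genes still had a positive log2 fold change. The part of liver RNA in this list was not tested.

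**Figure D2:**
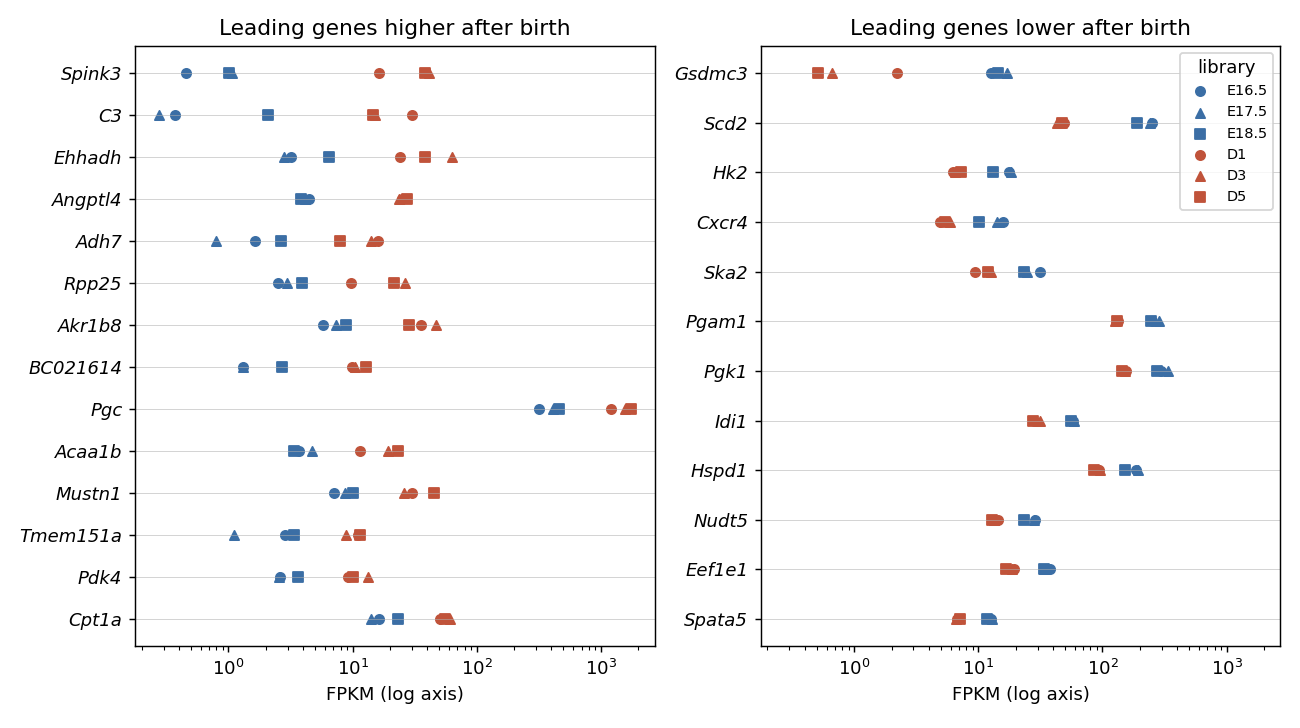
FPKM (log axis) of the leading genes in each of the 6 libraries, with 14 of the 15 genes higher after birth on the left and the 12 lower ones on the right; blue symbols are the 3 libraries before birth and red symbols the 3 after it. In each of these genes all values of 1 side lay above all values of the other, as in Spink3 (0.453 to 1.07 FPKM before, 16.48 to 41 FPKM after) and Spata5 (11.8 to 12.8 FPKM before, 6.56 to 7.16 FPKM after).

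Genes were ranked by fold change among those called on both scales, with no overlap and a mean of at least 10 FPKM on the higher side. This left 39 genes higher after birth and 13 lower, of which 4 and 1 carry predicted or unnamed symbols and are not named. Ehhadh, Angptl4, Acaa1b, Pdk4 and Cpt1a of the routes just described were among the 15 leading genes that rose. Spink3, a secreted inhibitor of trypsin, led the ranking. It was at 0.453, 1.07 and 1.01 FPKM before birth and at 16.48, 41 and 38.3 FPKM after it (log2 fold change 4.07, SE 0.34, adjusted p = 0.0116). Complement C3, the central component of the complement cascade, was at 0.372, 0.274 and 2.07 FPKM and then at 29.9, 15.2 and 14.7 FPKM (log2 fold change 3.51, adjusted p = 0.0274; 3.19 and adjusted p = 0.0188 without D1). Its E18.5 value was above the other fetal ones and well below each later one.

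Enzymes that handle retinol, aldehydes and other small molecules stood among the leaders too. Adh7, an alcohol dehydrogenase of the upper digestive tract that oxidises ethanol and retinol, was at 1.63, 0.797 and 2.66 FPKM before birth and at 15.9, 14.1 and 7.91 FPKM after it (log2 fold change 2.35, adjusted p = 0.0415). The aldo-keto reductase Akr1b8 was at 5.79, 7.29 and 8.94 FPKM and then at 35.9, 47.1 and 28.5 FPKM (log2 fold change 2.18, adjusted p = 0.0198). Neither gene's groups came close to each other. Mustn1, a small nuclear protein of the musculoskeletal system, rose from 7.11, 8.65 and 10.2 FPKM to 29.9, 26.1 and 45.1 FPKM (log2 fold change 1.82, adjusted p = 0.0305). Rpp25, a subunit of the ribonucleases P and MRP, rose by 2.20, BC021614 by 2.15 and Tmem151a by 1.80 on the log2 scale.

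The 4 tested protease genes of the gastric juice had higher mean levels after birth, and 1 of them was called. Pgc, the zymogen pepsinogen C (chromosome 17, 47726842 to 47734478 in the GRCm38 coordinates of the files), was at 318, 414 and 462.5 FPKM before birth and at 1214, 1558 and 1753 FPKM after it. Its values rose in order of age and made the largest step between E18.5 and D1 (log2 fold change 1.92, SE 0.20, adjusted p = 0.0210). Cym was at 9621, 13450 and 35720 FPKM and then at 50220, 73930 and 71610 FPKM. Its groups did not overlap either, but it had already climbed between E17.5 and E18.5, and it missed the threshold (log2 fold change 1.95, adjusted p = 0.0574). Pga5, the pepsinogen A of the mouse, was at 355, 2183 and 15710 FPKM before birth and at 19820, 22300 and 15900 FPKM after it. Most of its climb was over by E18.5 (adjusted p = 0.132). The 4 proteases had a median log2 fold change of 1.94, and 2.08 with scaling. Without E18.5 all 4 were called higher, without D1 it was 1, and without any other library none.

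The promoter of Pgc is printed because it is the leading gene of this group with a start-proximal TATA box. The RefSeq sequence of the 250 bases before its start (GRCm38.p6, chr17:47726592-47726841, plus strand) is given from 5′ to 3′, and capitals mark TATAAA, searched on the gene's strand.
Pgc: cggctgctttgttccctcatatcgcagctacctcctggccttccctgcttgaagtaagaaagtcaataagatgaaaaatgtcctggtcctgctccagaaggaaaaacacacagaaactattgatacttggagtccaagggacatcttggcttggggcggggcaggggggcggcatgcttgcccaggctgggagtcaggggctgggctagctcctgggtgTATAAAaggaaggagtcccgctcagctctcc
The match began 31 bases before the start. Of the 15969 genes tested, 10991 had a promoter in the table, and 4.58% of those held TATAAA in this window; among genes called higher it was 10 of 117 (8.55%) and among genes called lower 7 of 135 (5.19%). These shares are descriptions of letters and say nothing of a factor being bound.

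Most genes of acid secretion, mucus and gastric hormones were not called. Of 22 parietal cell genes none was called in limma, 12 had no overlap with the higher values after birth, against 11% of all genes (12 and 17.2% with scaling), and the median log2 fold change was 0.58. Atp4a, the catalytic subunit of the gastric proton pump, was at 33.3, 83.1 and 216 FPKM before birth and at 334, 372 and 634 FPKM after it (adjusted p = 0.0682). Its partner Atp4b was at 76.6, 128 and 327 FPKM and then at 492, 472 and 624 FPKM (adjusted p = 0.0661). In both genes E18.5 lay nearer to D1 than to E16.5. Without E18.5, 9 of these genes were called higher, without D1 1 was, and without any other single library none was.

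Of 20 genes of surface and neck mucous cells, 2 rose, against 1.05% of all genes, and 10 had no overlap in that direction, against 11%, with a median log2 fold change of 1.01. The transmembrane mucin-like gene Dpcr1 was at 67.6, 91.0 and 122.8 FPKM before birth and at 251, 597 and 398 FPKM after it (log2 fold change 2.09, adjusted p = 0.0477). Psca, a surface antigen of gastric epithelium, rose from 699, 760 and 586 FPKM to 1112, 1517 and 1208 FPKM (log2 fold change 0.90, adjusted p = 0.0477). The secreted mucins themselves differed from each other. Muc5ac, the mucin of surface cells, was at 5.92, 6.38 and 3.95 FPKM before birth and at 4.63, 3.85 and 3.39 FPKM after it, with overlapping groups. Muc6, the mucin of deep gland cells, was at 5.32, 6.48 and 7.16 FPKM and then at 8.44, 16.46 and 28.5 FPKM (adjusted p = 0.0884). Without E18.5 9 of the list were called higher, without D1 5, and without any other library none.

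Of 18 gastric endocrine genes none was called, and 9 had no overlap with the higher values after birth, against 11% of all genes, at a median log2 fold change of 0.65. Ghrl, which encodes the hunger hormone ghrelin, was at 19.4, 50.6 and 116 FPKM before birth and at 208, 467 and 704 FPKM after it (adjusted p = 0.0543). Its value was higher at each of the 5 steps. Gast, the gene of the acid-stimulating hormone gastrin, was at 10.4, 9.97 and 5.32 FPKM before birth, at 10.9 FPKM at D1, and at 173 and 170 FPKM at D3 and D5 (adjusted p = 0.101). Its change thus came after the first postnatal day. Without D1 5 genes of the list were called higher, without E18.5 6, and without any other library none.

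Cell division genes were lower after birth. Each of the 42 tested genes of the list had all 3 values after birth below the 3 before it, against 27.6% of all genes, and 10 of them fell with an adjusted p under 0.05. The median log2 fold change was -0.93, and -0.80 with median-ratio scaling, under which none of the 42 was called. Mki67, the proliferation antigen, was at 32.6, 32.9 and 26.9 FPKM before birth and at 13.1, 21.98 and 16.7 FPKM after it (adjusted p = 0.0583). Top2a, the topoisomerase that untangles replicated chromosomes, was at 73.0, 61.1 and 47.8 FPKM and then at 18.7, 33 and 23.9 FPKM (log2 fold change -1.25, adjusted p = 0.0498). The ubiquitin-conjugating enzyme of mitotic exit, Ube2c, fell from 181, 176 and 104 FPKM to 53.4, 65.9 and 55.9 FPKM (log2 fold change -1.34, adjusted p = 0.0477). E18.5 was the lowest fetal library in each of the 3.

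Cyclin B1 (Ccnb1), the partner that activates Cdk1 at mitosis, fell from 50.1, 41.4 and 31.8 FPKM to 14.6, 20.1 and 13.7 FPKM (log2 fold change -1.29, adjusted p = 0.0477). Birc5, the survivin subunit of the chromosomal passenger complex, fell from 91.8, 95.0 and 58.9 FPKM to 29.5, 37.6 and 33.7 FPKM (log2 fold change -1.24, adjusted p = 0.0477). Cdk1 was at 43.1, 36.5 and 29.3 FPKM before birth and at 14.1, 20.96 and 16.3 FPKM after it (log2 fold change -1.04, adjusted p = 0.0486). The summed level of the list was 1991, 1810 and 1304 FPKM before birth and 699, 1002 and 852 FPKM after it, so that D1 was the lowest of the 6. Without E18.5 37 of the 42 were called lower, without D1 1 was, and without any other library none. Ska2, a kinetochore protein outside the list, was among the 12 leading genes that fell, from 31.2, 24.8 and 23.2 FPKM to 9.38, 12.7 and 12 FPKM (log2 fold change -1.15, adjusted p = 0.0438).

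The promoter of Cdk1 is shown as an example of the promoters of cell division genes, in which CCAAT boxes recur (RefSeq, GRCm38.p6, chr10:69352913-69353162, minus strand, 5′ to 3′). Capitals mark CCAAT and TTTGAA, the core of the cell cycle homology region, both searched on both strands, so that ATTGG is a CCAAT on the other strand.
Cdk1: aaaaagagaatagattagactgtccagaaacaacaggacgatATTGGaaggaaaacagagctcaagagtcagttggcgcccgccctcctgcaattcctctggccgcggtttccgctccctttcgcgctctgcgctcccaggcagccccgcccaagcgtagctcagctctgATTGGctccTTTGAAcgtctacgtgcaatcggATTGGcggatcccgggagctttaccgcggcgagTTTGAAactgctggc
CCAAT began 208, 80 and 48 bases before the start, and TTTGAA 71 and 15 bases before it. In this window 25 of the 34 list members with a promoter held CCAAT (73.5%) and 8 held TTTGAA (23.5%), against 35.7% and 10.5% of all tested genes with a promoter. Among all genes called lower the shares were 48.9% and 20%, and among genes called higher 37.6% and 9.4%.

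Several genes of glucose breakdown and of the response to low oxygen fell. Of 20 tested genes of the hypoxia list 8 fell and none rose, against 1.18% of all genes that fell, and 12 had no overlap with the lower values after birth, against 27.6% (11 and 17.7% with scaling). The median log2 fold change was -0.45, and -0.31 with scaling, under which Pgk1 and Hk2 were still called. Vegfa, the vessel growth factor, was at 37.5, 37.7 and 29.5 FPKM before birth and at 22.2, 25.4 and 36.5 FPKM after it, with overlapping groups. Slc2a1, the glucose carrier GLUT1, was at 81.4, 79.1 and 45.3 FPKM and then at 26.5, 23.8 and 25.6 FPKM (log2 fold change -1.36, adjusted p = 0.0477). Hexokinase 2 (Hk2), which traps glucose in the cell, was at 17.8, 18.3 and 13.2 FPKM before birth and at 6.29, 6.51 and 7.19 FPKM after it (log2 fold change -1.18, adjusted p = 0.0360). The 3 newborn values of both genes lay close together, while E18.5 was the lowest fetal one.

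Phosphoglycerate kinase (Pgk1) makes the first ATP of glycolysis. It was at 296, 335 and 274 FPKM before birth and at 155, 152 and 144 FPKM after it (log2 fold change -0.998, SE 0.12, adjusted p = 0.0305). The next enzyme of the pathway, Pgam1, was at 252, 286 and 248 FPKM and then at 134, 125 and 131 FPKM (log2 fold change -1.002, adjusted p = 0.0274). Both genes have near-identical pseudogene copies between which reads could be split, so their levels carry that uncertainty. Ldha, the lactate dehydrogenase subunit of fermenting tissue, fell from 596, 734 and 500 FPKM to 302, 326 and 332 FPKM (log2 fold change -0.91, adjusted p = 0.0477). Ankrd37 fell by 1.41 and Ndrg1 by 1.55 on the log2 scale, and Ndrg1, a stress-responsive gene of differentiating epithelia, went on falling at each step from 120 FPKM at D1 to 89.2 and 65.8 FPKM. The whole pathway was put together as a set after the values were seen. Of its 19 glycolytic enzymes and glucose or lactate carriers 10 fell, against 1.18% of all genes, and none rose. With median-ratio scaling 3 were called lower, against 0.125% of all genes. Without D1 5 fell, without E18.5 12, and without any other library none. Without D1 4 of the hypoxia list were called lower, without E18.5 9, and without any other library none.

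The promoters of Pgk1 and Hk2 are printed as those of the members called on both scales (RefSeq, GRCm38.p6, 5′ to 3′; Pgk1 chrX:106186850-106187099, plus strand; Hk2 chr6:82774455-82774704, minus strand). Capitals mark ACGTG, the core of the hypoxia response element, searched on both strands, so that CACGT is a match on the other strand and CACGTG would count on both.
Pgk1: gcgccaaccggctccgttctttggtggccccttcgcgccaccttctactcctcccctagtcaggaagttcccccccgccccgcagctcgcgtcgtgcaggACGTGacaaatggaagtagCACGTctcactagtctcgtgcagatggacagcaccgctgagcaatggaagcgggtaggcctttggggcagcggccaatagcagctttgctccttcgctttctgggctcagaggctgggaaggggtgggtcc
Hk2: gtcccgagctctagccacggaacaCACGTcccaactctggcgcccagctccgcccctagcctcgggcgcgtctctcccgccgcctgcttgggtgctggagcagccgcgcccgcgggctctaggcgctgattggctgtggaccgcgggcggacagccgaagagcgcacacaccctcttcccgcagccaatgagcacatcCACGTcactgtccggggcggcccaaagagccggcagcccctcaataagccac
Matches began 150 and 131 bases before the start of Pgk1 and 226 and 52 bases before that of Hk2. In all, 12 of 18 hypoxia list members with a promoter held ACGTG (66.7%), against 21% of all tested genes with one. Among genes called lower the share was 36 of 135 (26.7%) and among genes called higher 9 of 117 (7.69%). Promoters of the called genes also differed in general make-up: GGGCGG on either strand stood in 57.3% of all promoters, in 63% of those called lower and in 41.9% of those called higher. The hypoxia genes are known partly for such elements, so the share within that list was not independent of how it was drawn up.

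Several enzymes of lipid synthesis fell. Scd2, a stearoyl-CoA desaturase that makes monounsaturated fatty acids in growing tissues (chromosome 19, 44293676 to 44306864), was at 251, 243 and 191 FPKM before birth and at 49.3, 43.1 and 47.4 FPKM after it. The drop was to 0.204 of the fetal mean (log2 fold change -2.26, SE 0.14, adjusted p = 0.00484), it was called on both scales, and it was called with each library left out. Its paralogue Scd1 was at a lower level and fell from 5.86, 5.56 and 6.14 FPKM to 2.07, 2.57 and 2.96 FPKM (log2 fold change -0.96, adjusted p = 0.0415). Fatty acid synthase (Fasn) fell from 38.6, 36.9 and 33.6 FPKM to 22.8, 22.6 and 22.6 FPKM (log2 fold change -0.66, adjusted p = 0.0477), and acetyl-CoA carboxylase (Acaca) fell by 0.72 on the log2 scale. These 4 were the called members of 10 synthesis enzymes gathered after the values were seen. Without D1 2 of them were called lower, without E18.5 5 of the 10 were lower and 1 higher, and without any other library it was Scd2 alone. Me1, the cytosolic malic enzyme that supplies NADPH for fat synthesis, was at 17.85, 31.4 and 65.7 FPKM before birth and at 62.6, 102.4 and 59.25 FPKM after it, with overlapping groups (log2 fold change 1.09, adjusted p = 0.146).

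Some genes of cholesterol synthesis also fell. Of 23 tested genes of the list 4 fell and none rose, against 1.18% of all genes that fell. With median-ratio scaling 1 of them, Idi1, was called lower. In all, 14 had no overlap with the lower values after birth, against 27.6% of all genes. The median log2 fold change was -0.50, or -0.36 with scaling. Hmgcs1, the cytosolic synthase at the head of the pathway, was at 116, 107 and 128 FPKM before birth and at 66.7, 89.9 and 80.6 FPKM after it, and it missed the threshold (adjusted p = 0.0663). Idi1, the isomerase that readies the isoprene unit for chain growth, fell from 57.5, 58.4 and 56.2 FPKM to 28.3, 31.4 and 27.4 FPKM (log2 fold change -0.96, adjusted p = 0.0283). Sqle fell by 0.68, Lss by 0.66 and Cyp51 by 0.63 on the log2 scale, and these follow one another around the closure of the sterol rings. Without E18.5 6 of the list were called lower, without D1 1, and without any other library none.

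**Figure D3:**
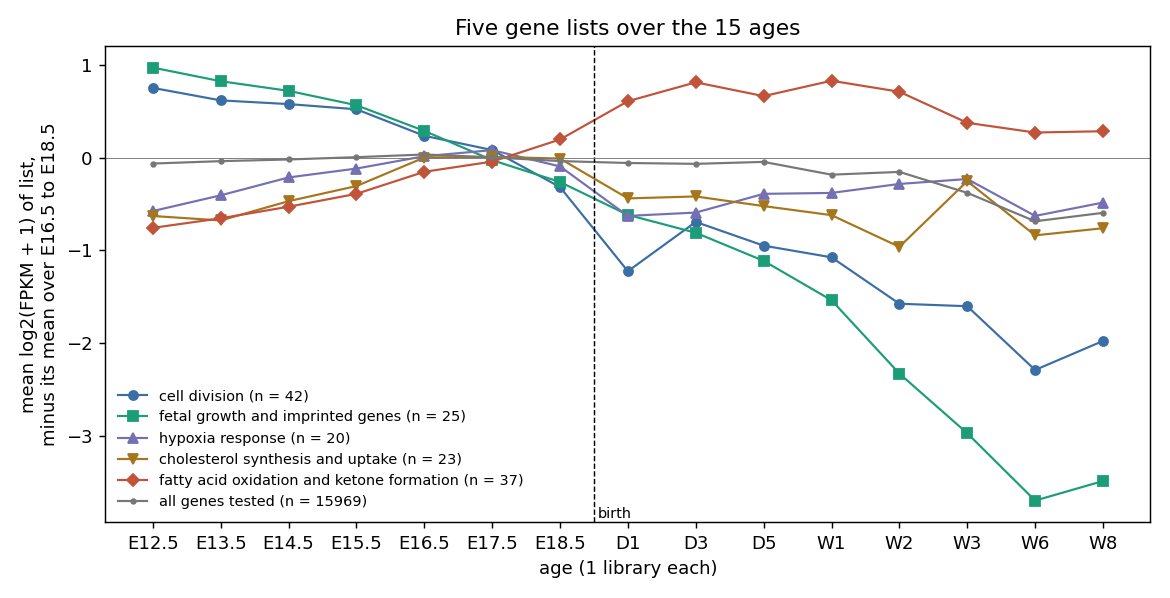
Mean log2(FPKM + 1) of 5 gene lists and of all 15969 genes tested at each of the 15 ages, 1 library each, as the difference from the mean over E16.5 to E18.5; the dashed line marks birth. The fat oxidation list lay above 0 at D1 and at each later age, the hypoxia and cholesterol lists dropped between E18.5 and D1, and the cell division and fetal growth lists were highest at E12.5 and lowest at W6, with a dip of cell division at D1.

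Some growth genes of the fetus fell across birth. Of 25 tested genes of this list, most of them imprinted, 6 fell and none rose, and 19 had no overlap with the lower values after birth, against 27.6% of all genes, at a median log2 fold change of -0.81, or -0.66 with scaling, under which none was called. Igf2, the fetal insulin-like growth factor, was at 838, 692 and 493 FPKM before birth and at 405, 208 and 143 FPKM after it (adjusted p = 0.0626). The linked long noncoding RNA H19 was at 3515, 2986 and 2188 FPKM and then at 1590, 735 and 598 FPKM (adjusted p = 0.0543). Both declined at each of the 5 steps. Cdkn1c, an imprinted inhibitor of the cell cycle from the same chromosome region, fell from 608, 491 and 374 FPKM to 184, 145 and 92.0 FPKM (log2 fold change -1.83, adjusted p = 0.0477). Hmga2, a chromatin protein of embryonic growth that is not imprinted, fell from 21.9, 14.9 and 9.03 FPKM to 3.99, 4.50 and 2.48 FPKM (log2 fold change -1.75, adjusted p = 0.0477). Grb10, an imprinted brake on insulin signalling, fell by 1.32, and Peg3 by 1.07. Without D1 6 of the list were called lower, without E18.5 13, and without any other library none.

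Other leading genes that fell had varied roles. Gsdmc3, a gasdermin of the pore-forming family, was at 12.53, 17.1 and 14.45 FPKM before birth and at 2.23, 0.661 and 0.507 FPKM after it (log2 fold change -2.96, SE 0.29, adjusted p = 0.0197). Its neighbours Gsdmc, Gsdmc2 and Gsdmc4 are close copies, and reads may have been shared among them. Cxcr4, the receptor of the chemokine CXCL12, fell from 15.8, 14.2 and 10.1 FPKM to 4.93, 5.87 and 5.35 FPKM (log2 fold change -1.15, adjusted p = 0.0477). The mitochondrial chaperonin Hspd1 fell from 185, 194 and 152 FPKM to 92.9, 94.9 and 85.7 FPKM (log2 fold change -0.94, adjusted p = 0.0415). Nudt5 fell by 0.92, Eef1e1 by 0.90 and Spata5 by 0.78 on the log2 scale.

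Some genes of immune defence rose after birth. Of 16 tested genes of antigen presentation 2 rose, and 13 had no overlap with the higher values after birth against 11% of all genes, at a median log2 fold change of 0.70, or 0.83 with scaling. The class I heavy chain H2-D1 was at 78.0, 89.5 and 97.9 FPKM before birth and at 144, 180 and 156 FPKM after it (log2 fold change 0.85, adjusted p = 0.0477). Tap1, a subunit of the peptide transporter that feeds class I molecules, rose from 4.17, 3.43 and 4.75 FPKM to 7.78, 7.74 and 7.28 FPKM (log2 fold change 0.76, adjusted p = 0.0477). Ciita, the master regulator of class II molecules, was at 0.192 FPKM or less in each library and was not tested, and the class II chaperone Cd74 was not called (adjusted p = 0.108). Of 24 interferon-response genes 2 rose, against 1.05% of all genes, at a median of 0.60. In that direction 10 had no overlap, against 11%. With median-ratio scaling none was called and 11 had no overlap, against 17.2%. Oas1a, an antiviral oligoadenylate synthetase with several close copies, was at 1.43, 2.20 and 3.73 FPKM before birth and at 8.52, 14.4 and 7.49 FPKM after it (log2 fold change 1.70, adjusted p = 0.0477), and its relative Oasl1 rose by 1.86. Leukocyte markers were measured beside these lists: 1 of 17 rose, the mast cell chymase Cma1, from 3.84, 4.65 and 4.71 FPKM to 9.77, 10.8 and 10.4 FPKM (adjusted p = 0.0274). Among the 17, 6 had no overlap in that direction. Over all genes 1.05% rose and 11% had no overlap. The part of leukocyte number in the defence genes was not tested. Without E18.5 6 genes of each defence list were called higher, without D1 3 and 1, and without any other library none.

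Of 31 matrix genes of the stomach wall 2 rose, Eln and Loxl1, and both belong to elastic fibres. In all, 7 had no overlap with higher and 5 with lower values after birth, against 11% and 27.6% of all genes, and the median log2 fold change of the list was -0.09 and turned to 0.06 with median-ratio scaling. Elastin (Eln) was at 173, 181 and 271 FPKM before birth and at 452, 592 and 725 FPKM after it (log2 fold change 1.501, adjusted p = 0.0477), and it rose at each step. Loxl1, the oxidase that cross-links elastin, rose from 32.8, 29.6 and 35.7 FPKM to 55.5, 56.6 and 60.0 FPKM (log2 fold change 0.79, adjusted p = 0.0477). Col1a1, the main chain of collagen I, was at 1214, 1022 and 1157 FPKM and then at 871, 1000 and 1379 FPKM, with overlapping groups. Without D1 again 2 matrix genes were called higher, without E18.5 3, and without any other library none. Of 20 smooth muscle genes none was called and 10 had no overlap with the higher values after birth, against 11% of all genes; without E18.5 4 were called higher, without D1 1, and without any other library none. Acta2, the smooth muscle actin, was at 1562, 1810 and 2070 FPKM before birth and at 2212, 2528 and 3110 FPKM after it (adjusted p = 0.0965). Of 21 genes of enteric neurons and glia 1 rose, against 1.05% of all genes, and none was called with median-ratio scaling. The 1 was the relaxing neuropeptide Vip, from 8.09, 8.499 and 10.6 FPKM to 15.8, 20.2 and 15.4 FPKM (adjusted p = 0.0477). Without E18.5 1 of this list was called higher, and without any other library none. Of 19 genes of vessel endothelium none was called.

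**Figure D4:**
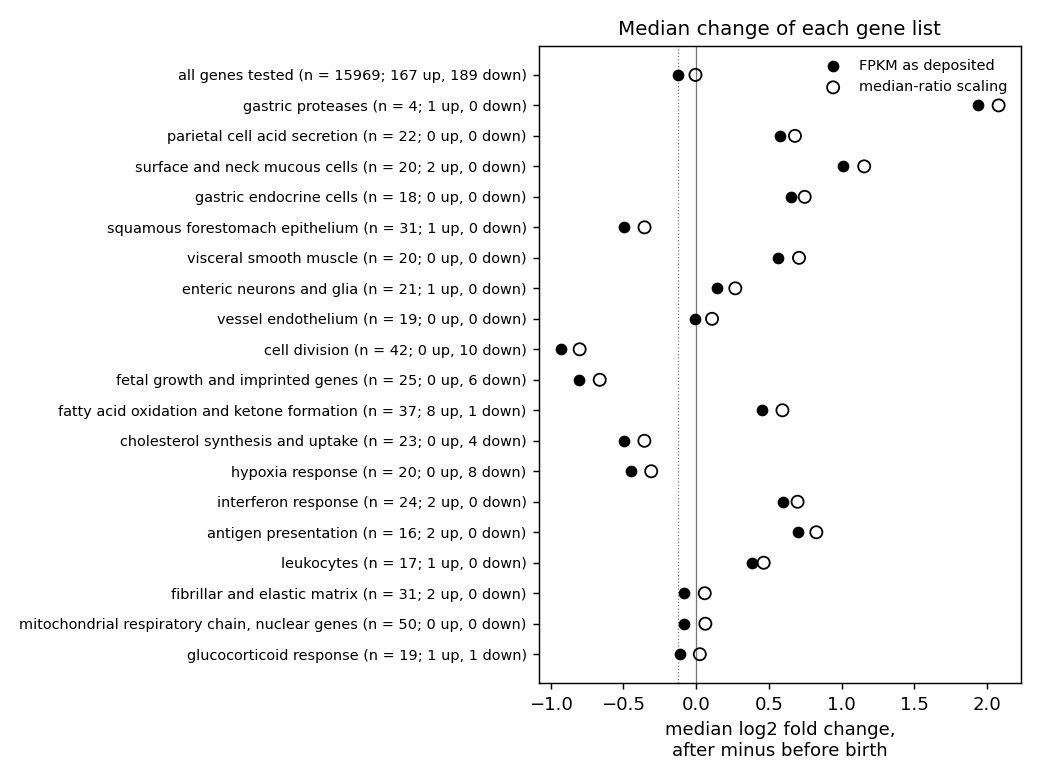
Median log2 fold change (after minus before birth, FPKM + 1) of 19 gene lists and of all genes tested, from the deposited FPKM (filled) and after median-ratio scaling (open); the labels give the tested members and how many were called up and down, the dotted line the median of all genes on the deposited scale (-0.127). The gastric protease and mucous lists lay farthest to the right and the cell division and fetal growth lists farthest to the left on both scales, while the matrix, respiratory chain, endothelium and glucocorticoid medians changed sign between them.

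Hormone, energy and rhythm genes gave mixed results. Of 19 glucocorticoid-responsive genes 1 rose and 1 fell, against 1.05% and 1.18% of all genes. With median-ratio scaling 1 was called higher and none lower. Sgk1, a kinase that promotes sodium uptake, was at 9.03, 11.6 and 10.3 FPKM before birth and at 23.2, 38.5 and 29.2 FPKM after it (log2 fold change 1.45, adjusted p = 0.0415), while Per1, which is also a clock gene, fell from 15.2, 15.8 and 11.1 FPKM to 7.74, 6.12 and 6.83 FPKM (log2 fold change -0.92, adjusted p = 0.0477). Without D1 1 gene of the glucocorticoid list was called higher and 2 lower, without E18.5 2 and 1, and without any other library none. Among 16 clock genes Per1 was the 1 called, against 2.23% of all genes called in either direction. None of the 16 was called with median-ratio scaling. None of 50 nuclear genes of the respiratory chain, of 29 patterning factors, of 20 genes of mucosal defence or of 15 immediate early genes was called in limma; of the respiratory chain genes 3 had no overlap with higher and 8 with lower values after birth, which are smaller shares than the 11% and 27.6% of all genes, and with scaling the counts were 5 and 0.

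The squamous epithelium of the forestomach did not move as 1 group. Of 31 tested genes 1 rose, and 5 had no overlap with higher and 6 with lower values after birth, against 11% and 27.6% of all genes. The basal keratin Krt5 was at 703, 964 and 582 FPKM before birth and at 681, 272 and 432 FPKM after it (adjusted p = 0.170). Its partner Krt14 was at 47.3, 79.2 and 118 FPKM and then at 234, 88.6 and 161 FPKM (adjusted p = 0.168), so both keratins overlapped between the sides. Involucrin (Ivl), a scaffold of the cornified envelope, rose from 1.23, 1.23 and 2.40 FPKM to 9.39, 7.28 and 8.64 FPKM (log2 fold change 1.87, adjusted p = 0.0225). The 14 late cornified envelope genes of the Lce1 family were taken up after their values were seen. All 14 had all values after birth above those before it, against 11% of all genes. None was called, and their median log2 fold change was 3.85. This median was 2.53 without E16.5, and 9 of the 14 had their largest step from E16.5 to E17.5, before birth. The Lce1 genes are close copies of each other. Related families did not share their lack of overlap. The 6 Lce3 genes had a median log2 fold change of 1.82, but the groups overlapped in each. Of 14 tested Sprr genes 10 had a negative and 4 a positive log2 fold change, at a median of -0.56. Of the Sprr genes 3 had no overlap with lower values after birth and 0 with higher. The summed level of the squamous list was 11920, 19900 and 15960 FPKM before birth and 27000, 10020 and 10590 FPKM after it. D1 thus had the highest sum of the 6 libraries and D3 and D5 the lowest, and the most abundant genes weigh most in a sum. By the mean log2(FPKM + 1) of the list D1 was also highest, at 6.812. E16.5 was then lowest, at 5.578, below D5 at 5.661 and D3 at 5.692. Without D1 1 of the list was called higher and 7 lower, without E18.5 4 and 2, and without any other library none.

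Markers of blood and of neighbouring organs moved across birth as well. The 8 tested red blood cell genes summed to 5789, 6033 and 3156 FPKM before birth and to 2683, 512 and 1400 FPKM after it, and none was called. The alpha globin Hba-a1 was at 3065, 3228 and 1669 FPKM and then at 1452, 280 and 752 FPKM, and reads of its copy Hba-a2 cannot be told apart from it. The 16 liver genes summed to 130, 169 and 278 FPKM before birth and to 1865, 411 and 284 FPKM after it, with 1 called higher, Apob (0.123, 0.0312 and 0.381 FPKM before, 2.40, 1.58 and 1.304 FPKM after). Their median log2 fold change was 1.85 and fell to 0.66 without D1. In the exocrine pancreas list 1 of 14 tested genes rose, the phospholipase Pla2g1b, from 84.5, 106 and 171 FPKM to 423, 785 and 1312 FPKM (adjusted p = 0.0477), whereas the acinar factor Ptf1a stayed at or below 0.994 FPKM in all 6 libraries.

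Of 10 tested genes of the intestinal epithelium 2 rose, against 1.05% of all genes, and none was called with median-ratio scaling. The fatty acid binding protein Fabp1 was at 5.88, 10.5 and 22.3 FPKM before birth and at 119, 151 and 55.7 FPKM after it (log2 fold change 3.05, adjusted p = 0.0477; 0.0570 without D1). Lgals2, a galectin of digestive epithelia, rose from 6.78, 5.20 and 9.27 FPKM to 23.9, 65.3 and 115 FPKM (log2 fold change 2.87, adjusted p = 0.0477). The defining intestinal factors Cdx1 and Cdx2 were not among the genes tested, since neither reached 1 FPKM in any of the 6 libraries. Of 5 tested adipose genes 1 rose, Cidea, while adiponectin (Adipoq) was at 0 FPKM in 5 libraries and at 1.46 FPKM in D5. Without D1 3 liver, 3 pancreas, 3 intestinal and 2 adipose genes were called higher, without E18.5 2, 2, 4 and 2, and without any other library none. The part of these tissues in the results above was not tested. The milk caseins Csn1s1, Csn1s2a and Csn2 were at 0.459 FPKM or less in each library.

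**Figure D5:**
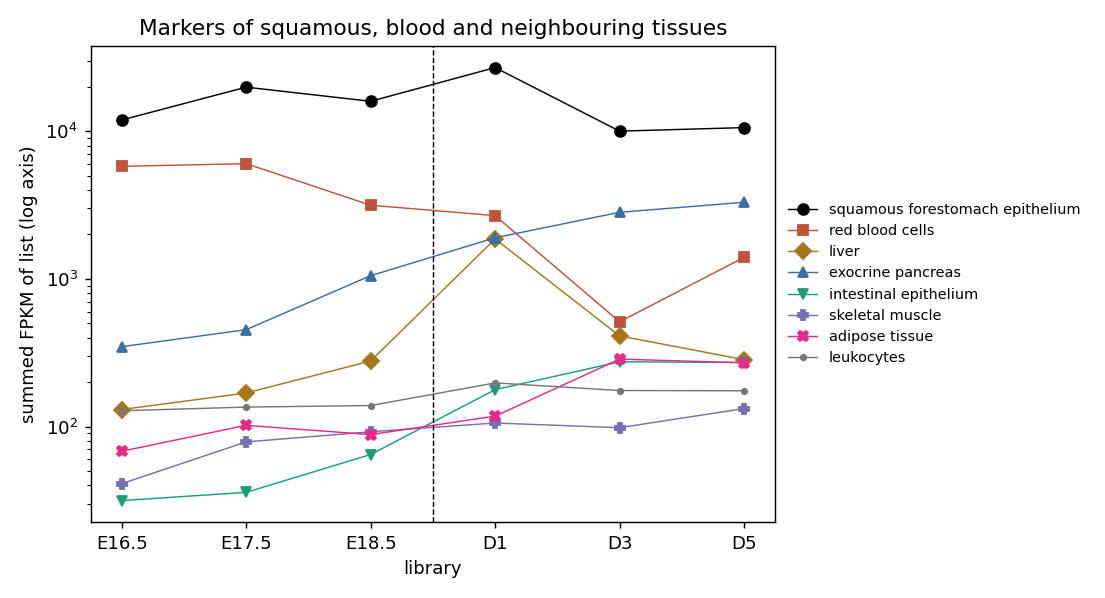
Summed FPKM (log axis) of the squamous, red blood cell, liver, exocrine pancreas, intestinal, skeletal muscle, adipose and leukocyte lists in each of the 6 libraries, with birth marked by the dashed line. The liver list peaked at D1 (1865 FPKM against 130 to 411 FPKM elsewhere), the red blood cell list was lowest at D3 (512 FPKM), and the squamous list was highest at D1 (27000 FPKM).

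The difference across birth mostly lasted through suckling. Of the 167 genes that rose, 155 (92.8%) were above each of the 3 late fetal values at both W1 and W2 (1 and 2 weeks of age), against 15.3% of all genes tested. At the weaned ages W3, W6 and W8 this held for 96 of them (57.5%), against 10.8% of all genes. Of the 189 genes that fell, 188 (99.5%) were below each late fetal value at W1 and W2 and 181 (95.8%) at all 3 weaned ages, against 46.9% and 61.5% of all genes. At the 4 earlier fetal ages, E12.5 to E15.5, 166 of the genes that rose lay below each value of D1 to D5, against 22.9% of all genes, and 170 of the genes that fell lay above them, against 44.9%. The ages outside the comparison did not enter the test. They were set against the same late fetal or newborn values by which the genes were called. A gene called for low or high values there passes more easily, so these shares describe the called genes and were not tested. Spink3 was at 63.1 FPKM at W1 and at 1.48 FPKM or less from W2 on. Cpt1a kept to 34.6 FPKM or more through W8, and Scd2 to 56.9 FPKM or less.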

How the data were processed

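Whole stomachs of C57BL/6 mice were sequenced by the authors as poly(A) RNA on an Illumina instrument, with 1 library for each of 15 ages. Per the labels, FastQC and Bowtie 0.12.2 were used with build GRCm38.p2, whereas the study's methods name HISAT2 and StringTie, and 1 sentence of them names liver as the source of RNA. The deposited values are FPKM per gene entry with confidence bounds, so read counts were not tested. Entries of a symbol (46966 entries, 44788 symbols) were added up, 1 was added to each start, and log2(FPKM + 1) of E16.5, E17.5 and E18.5 was compared with D1, D3 and D5 in limma 3.58.1 under R 4.3.3, for genes of at least 1 FPKM in 1 of the 6 libraries, with Benjamini-Hochberg adjustment at 0.05. The pseudocount of 1 understates changes of low genes. On simulated data for this comparison (15969 genes), 63 of 100 genes changed by 1 on the log2 scale and 92 of 100 changed by 2 were recovered, with 5 false calls. Changes were set only in genes with a mean log2(FPKM + 1) above 2. The simulated noise was independent between genes and libraries and held no change with age. The real libraries differ in this, so these counts hold for the simulated setting alone. Named genes were the 15 with the largest change in each direction (called on both scales, no overlap, mean of at least 10 FPKM on the higher side), and of each list the first 2 members and up to 4 called ones; any further gene was chosen after its values were seen. The 31 lists and the comparison itself were chosen with earlier results of these data known. No label says that libraries came from separate litters, so p-values measure the spread between these libraries. Alternatives changed the scaling, pseudocount, filter, entries, model and libraries; 9 ages outside the comparison were used for time courses and 1 alternative fit. Values of some genes are not reported here.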

Additional observations from a re-analysis of the deposited data

How the results depend on the processing

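The counts of 167 genes higher and 189 lower changed by more than 1.5 times under most alternatives, and the causes were not tested except where the construction shows them. Among scalings, median-ratio scaling called 104 and 20, quantile normalization 68 and 31, a fixed sum of FPKM 53 and 25, and a fixed sum without the 10 highest genes 53 and 7. A pseudocount of 0.1 called 22 and 1, and one of 0.5 called 56 and 16. With no filter on low FPKM (26398 genes) 8 and 4 were called, with a mean of at least 1 FPKM (14642 genes) 319 and 561, and with a maximum of at least 2 FPKM the lower genes numbered 375. An intensity trend in limma gave 390 and 745, and a fit of all 15 libraries, which pools the spread over more samples, 667 and 1705. A linear model on untransformed FPKM called 0 and 0, with 4051 genes at an unadjusted p under 0.05, and so did adding the order of ages as a linear term, with 569. E17.5 and E18.5 against D1 and D3 called 1 and 3. Leaving out 1 library at a time gave 4 to 667 genes higher and 1 to 1238 lower. The first entry of each symbol kept both counts within 1.5 times.

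The median log2 fold change of all genes was -0.004 with median-ratio scaling, -0.062 with quantile normalization, -0.021 with the fixed sum without the 10 highest genes, and -0.091 to -0.160 with 1 library left out. The share of all genes with their largest step at birth was 35.6% with median-ratio scaling. All 82 called genes named here kept their direction under all of the up to 21 alternatives. The groups of all 356 called genes did not overlap. On the deposited scale, fits with fewer of the 6 libraries could therefore not turn a direction. Each of 353 calls was lost in at least 1 of the 6 fits without 1 library. Of the genes not called, with the linear term for age Acadm turned to -0.054, Acta2 to -0.15, Adipoq to -0.54, Atp4a to -0.36, Cd74 to -0.13, Ghrl to -0.16, Igf2 to 0.18, Me1 to -0.215, Muc5ac to 0.27, Muc6 to -0.29, Pga5 to -0.80 and Ppara to -0.16. Col1a1 turned to 0.06 with median-ratio scaling, 0.07 with quantile normalization, 0.039 with the fixed sum without the 10 highest genes, and lay between -0.273 and 0.058 with 1 library left out. Ppara turned to -0.16 with E17.5 and E18.5 against D1 and D3 and lay between -0.144 and 0.327 with 1 library left out.

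No paired analysis was possible because the labels give no replicate numbers and each age has 1 library. Age and birth cannot be told apart in full, since all libraries after birth are older than those before it. Depth was not given as counts, so small differences of genes near 1 FPKM have no counting error beside the deposited bounds.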

Other observations

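Several further genes of fat handling rose, all of them chosen after their values were seen. Acot1, a cytosolic thioesterase that splits acyl-CoA, was at 22.8, 27.3 and 25.1 FPKM at E16.5, E17.5 and E18.5 and at 77.3, 69.9 and 81.0 FPKM at D1, D3 and D5 (log2 fold change 1.56, adjusted p = 0.0102). With its mitochondrial relative Acot2, it made up the 2 called members of 8 tested thioesterases, while 1.05% of all genes were called higher. The transcription factor Creb3l3, known for its role in hepatic and intestinal lipid metabolism, was at 0.366, 0.557 and 0.499 FPKM and then at 5.86, 8.18 and 5.12 FPKM (log2 fold change 2.31, adjusted p = 0.00755). The triglyceride lipase Pnpla2 rose from 14.9, 15.8 and 22 FPKM to 35.1, 42.6 and 38.03 FPKM, and Gpd1, which links glycolysis to glycerolipids, from 1.36, 0.848 and 2.23 FPKM to 6.25, 7.34 and 10.2 FPKM. Each of these had its groups well apart. Txnip, an inhibitor of glucose uptake, was at 84.5, 93.9 and 138 FPKM before birth and at 252, 272 and 264 FPKM after it (log2 fold change 1.343, adjusted p = 0.0415). Hif3a, a hypoxia-inducible factor that dampens the others, fell from 36.1, 28.6 and 18.53 FPKM to 7.48, 4.81 and 2.67 FPKM (log2 fold change -2.30, adjusted p = 0.0477), although it declined at each step and not at birth alone.

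Small families showed rises of related members, also chosen after their values were seen. Of 3 subunits of the epithelial sodium channel 2 rose. Scnn1b was at 0.790, 1.54 and 1.40 FPKM before birth and at 4.21, 9.70 and 6.63 FPKM after it (log2 fold change 1.76, adjusted p = 0.0477), and Scnn1g rose by 1.06 on the log2 scale. Of 14 tested complement components 3 rose (C2, C3 and C4b), against 1.05% of all genes, and none fell. With median-ratio scaling 2 of the 14 were called higher. C4b was below 1 FPKM in each library but D1, so it was not tested without D1. Without D1 12 components were tested, 2 were called higher, and 10 had a positive and 2 a negative log2 fold change. Without E18.5 6 were called higher, and without any other library none. D1 also had the highest sum of liver genes, and the part of liver RNA in these components was not tested. All 3 entries of the lymphatic chemokine Ccl21 rose, but these are near-identical genes among which reads may be shared. The neuropeptide Nmu was at 0.247, 0.0981 and 0.192 FPKM before birth and at 2.72, 3.89 and 4.95 FPKM after it (log2 fold change 2.02, adjusted p = 0.0147), and the gastrin-releasing peptide Grp rose from 6.88, 8.32 and 9.18 FPKM to 20.98, 23.7 and 16.8 FPKM. Among 6 mitochondrial chaperones the paired Hspd1 and Hspe1 fell, and among 6 collagen hydroxylases P4ha1 and Plod2 did. Over all genes 1.18% fell. With median-ratio scaling 1 of the chaperones and none of the hydroxylases was called. Of 49 tested Hist1 histone genes 4 fell and 23 had no overlap with the lower values after birth, against 27.6% of all genes, and none was called with median-ratio scaling; histone messages mostly lack poly(A) tails, which the library selected for.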
